A study of Mus musculus with 2 samples.

Results

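The genes described here encode the chaperones, disulfide enzymes and degradation factors of the endoplasmic reticulum (ER). The set holds 38 genes, chosen by name for these roles, out of 23652 genes listed in the deposited table. They were found by gene symbol, except that Selk stands there under its newer symbol Selenok. By role they were divided into 15 chaperones and folding helpers, 11 disulfide enzymes and 12 factors of ER-associated degradation (ERAD). Of the 38 genes, 37 passed a minimum of 1 FPKM, averaged over the libraries, and Fkbp2 did not. FPKM is the read number scaled by gene length and by the library's total, so levels of different genes can be compared on it.

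Proteins that enter the secretory pathway fold in the ER. Chaperones hold the unfolded chains, disulfide enzymes join their cysteines, and chains that fail are drawn back to the cytosol and destroyed by ERAD. Beta cells load this system heavily, because proinsulin needs correctly paired disulfide bonds before it can leave the ER, and acinar cells load it with digestive enzymes. Many of the genes are switched on together by the unfolded protein response, a set of sensors in the ER membrane and the transcription factors that they activate.

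RNA was sequenced from pancreatic islets of mice aged 7 months. The control library came from mice with floxed Srsf2 (genotype SRSF2 flox/flox). The library called the knockout here carried, on the same floxed background, Ins2-Cre, a recombinase under the promoter of an insulin gene that is expected to act in beta cells, so that other islet cells keep the gene. Each group had 1 library. The genotype label of the control names no Cre, so Ins2-Cre itself and the loss of Srsf2 cannot be told apart. Whether several mice were pooled for it is not given in the sources used here. Reads assigned to listed genes numbered 17412828 for the control and 15098659 for the knockout. Srsf2, the targeted splicing factor, stood at 37.2 FPKM in the control and 22.6 FPKM in the knockout (ratio 0.607, 95% counting interval 0.566 to 0.651).

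With 1 library per group there was no test and no replicate error. Each difference below describes these libraries, and its interval covers only the counting error of reads. The median gene was lower in the knockout library, by 0.36 on the log2 scale over 10666 measured genes. Differences are therefore given relative to this median, as log2(FPKM + 0.5) in the knockout minus the same in the control, minus the median. Ratios are knockout over control in FPKM, without that correction, so a gene with the ratio of the median gene has 0.778. Differences also followed gene length. Between the 534 shortest measured genes and the 533 longest, taken in 20 length bins, the median relative difference went from 0.66 to -0.23. A length-corrected difference, from which a running median over genes of like length was subtracted, is given wherever its sign differs from that of the relative difference, and for some other genes. Srsf2 itself had a relative difference of -0.34, or -0.31 corrected for length.

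A shared DNA element marked part of the set. The ER stress response element (ERSE) is a pair of short boxes, CCAAT and CCACG, 9 bases apart, through which the stress factor ATF6 and the general factor NF-Y act. It was defined on chaperone promoters such as that of Hspa5, so its presence in those is no discovery. RefSeq promoter windows (GRCm38.p6, 250 bases before to 50 after the start) were at hand for 33 of the 38 genes. On either strand, an ERSE with exact boxes stood in the windows of 10 of these 33 genes (30.3%), against 37 of 27025 genes with a window in all (0.137%). ERSE-II, ATTGG and CCACG 1 base apart, stood in 2 of the 33 (6.06%), against 12 of all genes (0.0444%). UPRE, spelled TGACGTGG, stood in 1 of the 33, Txndc5, against 193 of all genes (0.714%). No window of the 33 genes held both ERSE forms. The matches are shown because they are what 12 of these 33 promoters have in common. Each is written 5′ to 3′ in the direction of the boxes, which are in capitals, with the spacer in lower case.
Hspa5: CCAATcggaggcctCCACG
Hsp90b1, nearer the start: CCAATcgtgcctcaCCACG
Hsp90b1, farther from it: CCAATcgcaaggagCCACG
Calr: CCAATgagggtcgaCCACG
Canx: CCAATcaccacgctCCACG
Creld2: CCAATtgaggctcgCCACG
Dnajc3: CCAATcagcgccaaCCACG
Pdia6: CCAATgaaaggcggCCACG
Ero1lb: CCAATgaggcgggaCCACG
Syvn1: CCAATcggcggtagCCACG
Derl3: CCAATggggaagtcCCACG
Herpud1 (ERSE-II): ATTGGgCCACG
Dnajb11 (ERSE-II): ATTGGcCCACG

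The spacers differed from gene to gene while the boxes were fixed by the search. Copies with inexact boxes, or outside the windows, were not searched for, so a gene may hold more elements than are shown. Positions are counted from the start of transcription that each window uses. The ERSE of Hspa5 lay at -65 to -47, or chr2:34772025-34772043 on the plus strand. That of Ero1lb lay at -201 to -183, or chr13:12565682-12565700 on the minus strand. For Ero1lb the start used by the window differs from the listed gene start, chr13:12565818, and lies inside the listed gene. The ERSE of Derl3 lay at -156 to -138, or chr10:75893242-75893260 on the minus strand. The ERSE-II of Dnajb11 was the only match after a start, at bases 8 to 18. The surroundings of the element are shown for Hspa5, the best known target, and for the genes with the lowest and the highest difference of the whole set, Ero1lb and Derl3. They are written along the gene's own strand with the ERSE in capitals, so that it reads as its reverse complement in Ero1lb and Derl3. The stretches span chr2:34771985-34772083, chr13:12565642-12565740 and chr10:75893202-75893300.
Hspa5: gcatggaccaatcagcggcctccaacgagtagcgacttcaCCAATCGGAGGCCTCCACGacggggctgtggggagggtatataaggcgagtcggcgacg
Ero1lb: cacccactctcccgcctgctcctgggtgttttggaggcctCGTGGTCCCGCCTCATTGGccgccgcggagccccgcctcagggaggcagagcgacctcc
Derl3: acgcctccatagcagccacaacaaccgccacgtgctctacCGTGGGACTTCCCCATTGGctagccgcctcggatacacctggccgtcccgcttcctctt

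Genes with and without the element did not separate by their difference between the libraries. The 12 genes with an ERSE or ERSE-II had a median relative difference of 0.14, ranging from -0.87 (Ero1lb) to 1.45 (Derl3). The 20 measured genes whose window had neither had a median of 0.24, ranging from -0.54 (Edem3) to 0.97 (Fkbp11). With the correction for length the medians were -0.02 and 0.13. No promoter state was measured, so these values say nothing of factor binding.

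The 38 genes together took 1.37% of control reads (1.361% to 1.372% by an exact binomial interval) and 1.06% of knockout reads (1.054% to 1.064%). Chaperones took 0.606% and 0.467% of reads, disulfide enzymes 0.549% and 0.413%, and ERAD factors 0.211% and 0.179%. The disulfide enzyme shares depend strongly on Ero1lb, which alone had 34534 control reads and 12730 knockout reads. They are therefore not a measure of the whole class. In the same libraries acinar markers took 1.91% and 16.5% of reads. Without any shift to the median gene, the median log2 difference of the 37 measured genes was -0.18 with the deposited totals. With these markers left out of the library totals it was 0.038. Over all measured genes the same medians were -0.36 and -0.15, so the median of the set lay above theirs on either scale.

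Against other genes the set was near the middle, and on which side depended on the scaling. Of the 37 measured genes, 27 lay above the median of all genes and 10 below. Corrected for length, 19 lay above it and 17 below, and as deposited 11 lay above 0 and 26 below. Their median relative difference was 0.18, beside 0 for all measured genes by definition. The sign of the set's median thus depends on the scaling. The chaperones had a median of 0.25, the disulfide enzymes of 0.20 and the ERAD factors of 0.16. Corrected for length these were -0.07, 0.12 and 0.13, so the chaperone value changed sign.

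Few genes of the set passed a 2-fold difference. Relative to the median gene, 1 of 37 was at least 2-fold higher, Derl3, where 3.22% of all measured genes were. At least 2-fold lower were 0 of 37, where 1.36% of all were. As deposited, Derl3 was again the 1 gene past 2-fold higher (background 1.57%), and Hyou1 and Ero1lb were the 2 genes past 2-fold lower (background 6.32%). Counts of this size lie near the background shares. In the authors' deposited table, a comparison of 1 library with 1 library by DESeq, 0 of the 37 genes listed had an adjusted p-value under 0.05, where 0.496% of all 16528 genes did, and the adjusted p-value of each of the 37 was 1.

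**Figure D1:**
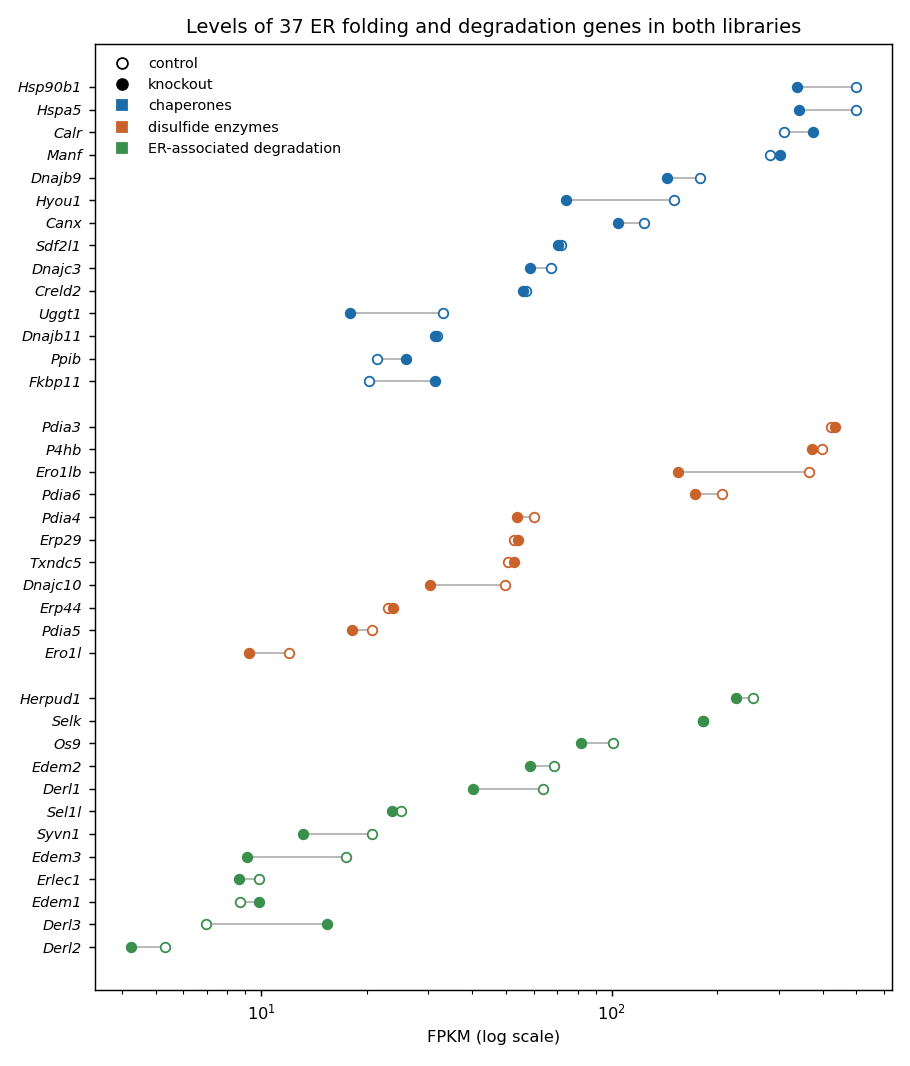
FPKM (log axis) of the 37 measured genes in the control library (open circles) and the knockout library (filled circles), grouped by role and ordered by control level. Hsp90b1 and Hspa5 led in the control at 499 and 498 FPKM, Pdia3 led in the knockout at 434 FPKM, and the widest gaps belonged to Derl3, Ero1lb and Hyou1.

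Levels spanned a wide range, and the order of genes was much alike in both libraries (Spearman rho 0.97 over 37 genes, as a description). In the control library, Hsp90b1 and Hspa5 were the most abundant, followed by Pdia3, P4hb and Ero1lb. In the knockout library the order at the top was Pdia3, Calr, P4hb, Hspa5 and Hsp90b1, and Ero1lb stood at rank 10. At the bottom stood Derl2 in both, with 5.30 and 4.24 FPKM. The largest moves in rank were those of Fkbp11, from 31 to 24, and Uggt1, from 24 to 30.

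Among the chaperones, the BiP machinery divided. Hspa5 encodes BiP, the ER member of the heat shock protein family that binds hydrophobic stretches of new chains. Its 22696 control reads and 13574 knockout reads gave 498 and 344 FPKM (ratio 0.690, interval 0.675 to 0.705). Hsp90b1, the ER member of the other main heat shock family, known as GRP94, stood at 499 and 339 FPKM (0.679, 0.665 to 0.693). Their proportion was nearly equal in the libraries: Hspa5 per Hsp90b1 was 0.999 in the control and 1.01 in the knockout, a ratio of ratios of 1.02 (0.986 to 1.05). Their relative differences were -0.17 and -0.19, a little below the median gene.

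Hyou1 was the lowest of the chaperones. It encodes GRP170, which exchanges the nucleotide of BiP and so frees its clients. It had 12566 and 5355 reads, or 151 and 74.3 FPKM (ratio 0.491, 0.476 to 0.507), and a relative difference of -0.66. Of all measured genes 5.87% had a lower value. Hyou1 per Hspa5 was 0.303 and 0.216, a ratio of ratios of 0.713 (0.686 to 0.741), so the proportion of these partners differed between the libraries by more than counting error. Corrected for its length of 4774 bases, Hyou1 differed by -0.50. Hspa5, at 2616 bases, differed by -0.25 when corrected, so the partners lay closer on that scale.

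The co-chaperones that hand clients to BiP carry a J domain, which sets off ATP use by BiP. Of those counted here among the chaperones, all were above the median gene before the correction for length. Dnajb9 stood at 178 and 144 FPKM, with a relative difference of 0.06 (length-corrected -0.18). Dnajc3, whose loss causes diabetes in mice, stood at 67.3 and 58.3 FPKM (0.16). Dnajb11 stood at 31.8 and 31.4 FPKM (0.35), and Sdf2l1, which forms a complex with the protein of Dnajb11, at 71.6 and 70.4 FPKM (0.34, length-corrected -0.12). For these last 2 genes the counting interval of the ratio included 1, from 0.922 to 1.06 and from 0.909 to 1.06. None of the 4 differed by as much as Hyou1. Dnajc10, a J domain gene placed among the disulfide enzymes, lay below the median gene and is described with them.

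The lectin chaperones, which hold glycoproteins by a trimmed sugar, differed among themselves. Calr, the soluble calreticulin, was higher in the knockout library, with 10528 and 10994 reads or 311 and 375 FPKM (ratio 1.20, 1.17 to 1.24; relative 0.63). Canx, its membrane-bound relative calnexin, stood at 124 and 105 FPKM (0.846, 0.820 to 0.873; relative 0.12). Calr per Canx was thus 2.52 and 3.58, a ratio of ratios of 1.42 (1.37 to 1.48). Calr is the shorter gene, at 1943 bases against 4289, and corrected for length the pair lay closer, at 0.41 and 0.24. Uggt1 encodes the sensor that puts a glucose back on misfolded glycoproteins and so returns them to these lectins. It was lower, with 33.1 and 17.9 FPKM (0.540, 0.515 to 0.567; relative -0.51). Uggt1 is long, at 9047 bases, and its length-corrected difference was -0.21.

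Of the remaining folding helpers most were above the median gene. Fkbp11, a prolyl isomerase gene that is prominent in secretory cells, had 335 and 447 reads, or 20.3 and 31.3 FPKM (ratio 1.54, 1.33 to 1.78), and a relative difference of 0.97. Ppib, encoding the ER prolyl isomerase cyclophilin B, had 358 and 376 reads, or 21.4 and 25.9 FPKM (1.21, 1.05 to 1.40; relative 0.63). Both have short listed lengths, 946 and 960 bases, where the GENCODE annotation has 2706 and 3305 exonic bases. Corrected for the listed length they differed by 0.44 and 0.10. Manf, a secreted stress-induced factor needed by beta cells in mice, stood at 284 and 302 FPKM (1.06, 1.02 to 1.11; relative 0.45, length-corrected -0.16). Creld2, another stress-induced ER protein gene, stood at 56.9 and 55.8 FPKM (relative 0.33, length-corrected -0.03). For genes of such short listed length the correction subtracts a positive trend, so their length-corrected differences were bound to be lower.

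Fkbp2, a further prolyl isomerase gene, was listed with 0 reads in both libraries. The limit that a count of 0 allows, 3 reads, equals 0.209 FPKM in the control and 0.241 FPKM in the knockout. Its listed span overlaps another listed gene on the same strand, LOC114841036, with 32 and 21 reads. How reads in overlapping genes were assigned is unknown here, so the 0 is not read as a lack of Fkbp2 RNA. Rnf5 and Atf6b, of the wider lists, were likewise at 0 in both.

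**Figure D2:**
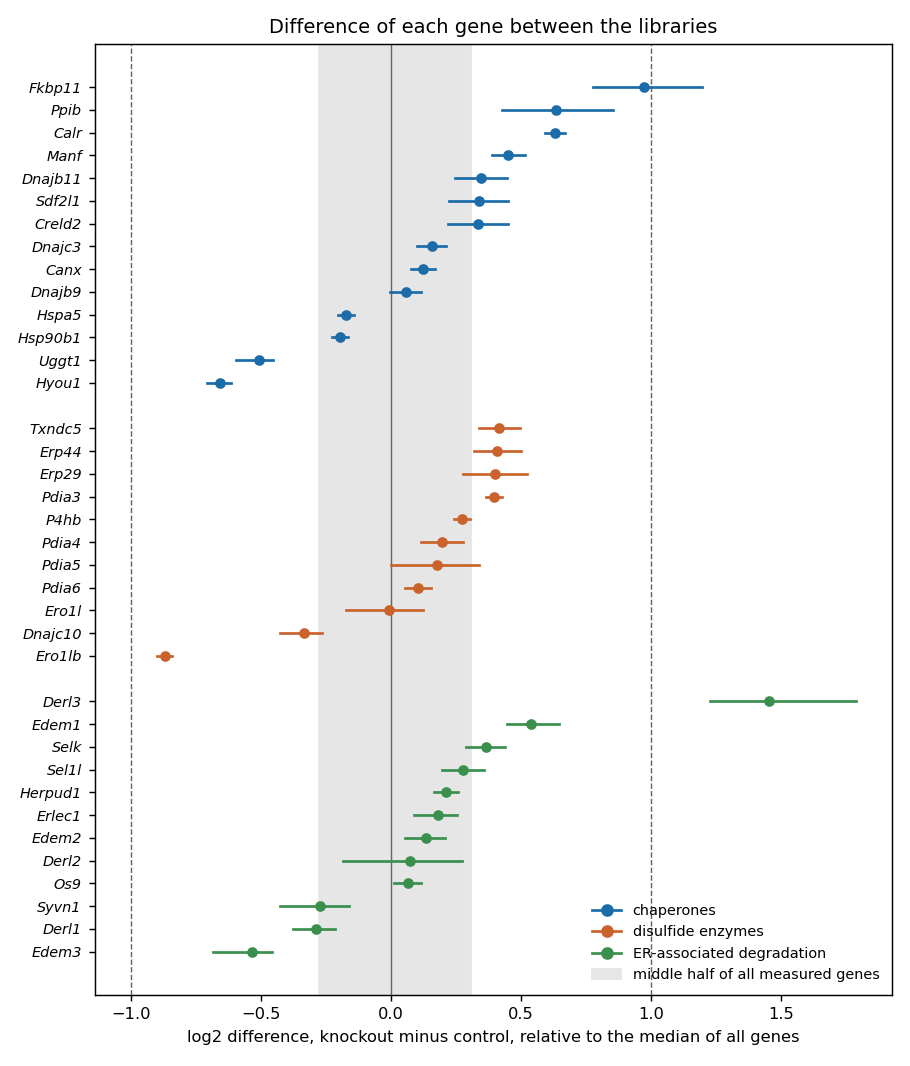
Log2 difference of each measured gene, knockout minus control, relative to the median of all measured genes (points), with 95% counting intervals of the FPKM ratio (lines), by role. The grey band runs from the lower quartile of all measured genes at -0.28 to the upper at 0.31, and dashed lines mark 2-fold. Derl3 lies beyond 2-fold higher, Ero1lb is lowest at -0.87, and 17 of 37 genes lie inside the band.

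Among the disulfide enzymes, the isomerases lay near the median gene or above it while the oxidase of beta cells lay far below it. P4hb, the protein disulfide isomerase itself, stood at 398 and 374 FPKM (ratio 0.939, 0.9201 to 0.959; relative 0.27). Pdia3, which works on glycoproteins held by calnexin and calreticulin, stood at 424 and 434 FPKM (1.02, 1.002 to 1.04; relative 0.40). Pdia6, an isomerase that also binds BiP, stood at 207 and 173 FPKM (0.835, 0.807 to 0.864; relative 0.10). The less abundant relatives Pdia4 (60.2 and 53.6 FPKM) and Pdia5 (20.7 and 18.1 FPKM) had relative differences of 0.20 and 0.17. These isomerases thus lay between 0.10 and 0.40 above the median gene on the log2 scale. Corrected for length, Pdia6 and Pdia5 stood at -0.10 and -0.06, below it, and Pdia3, P4hb and Pdia4 at 0.32, 0.25 and 0.12.

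Ero1lb had the lowest value of all 37 measured genes. It encodes the ERO1 beta oxidase, which passes electrons from protein disulfide isomerase to oxygen and is enriched in beta cells, where in mice it serves insulin folding. Its locus is chr13:12565818-12609533, plus strand. Reads numbered 34534 in the control library and 12730 in that of the knockout, equal to 365 and 155 FPKM. The ratio was 0.425 (0.417 to 0.434) and the relative difference -0.87, with 2.22% of all measured genes lower. Corrected for length it differed by -0.68.

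Its paralog Ero1l, which encodes the widely expressed and hypoxia-inducible ERO1 alpha, stood close to the median gene. It had 926 and 614 reads, or 12.04 and 9.20 FPKM (ratio 0.765, 0.689 to 0.848), and a relative difference of -0.01 (length-corrected 0.13). Ero1lb exceeded Ero1l 30.3-fold in the control and 16.9-fold in the knockout, a ratio of ratios of 0.556 (0.5005 to 0.618). Against P4hb, the enzyme it reoxidises, Ero1lb was 0.917 and 0.415, a ratio of ratios of 0.453 (0.440 to 0.466). So in FPKM the oxidase was about on a par with P4hb in the control library and below it in the knockout.

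Beta cell markers as a list were also below the median gene. Of 13 measured markers, 3 were at least 2-fold lower relative to the median gene and 0 were higher, with a median of -0.41 (length-corrected -0.66). Their summed level was 380605 and 352254 FPKM, and none was at 0. The most abundant of them were Ins2 (231507 and 225483 FPKM), Ins1 (100413 and 77674 FPKM) and the amylin gene Iapp (45156 and 47358 FPKM). Relative to the median gene these 3 short genes lay at 0.33, -0.01 and 0.43, and corrected for length at -0.37, -0.71 and -0.25. In bulk RNA, fewer beta cells and less of this RNA per beta cell cannot be told apart, and the part of the cell mixture in the value of Ero1lb was not tested.

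Of the other disulfide genes, 3 lay above the upper quartile of all measured genes (0.31) and 1 below the lower (-0.28). Erp44, which holds the ERO1 oxidases and unfinished oligomers back from the Golgi, stood at 23.0 and 23.7 FPKM (ratio 1.03, 0.970 to 1.10; relative 0.41). Txndc5, a thioredoxin-domain isomerase gene, stood at 50.7 and 52.6 FPKM (1.04, 0.983 to 1.10; relative 0.42), and Erp29, an isomerase relative without a redox-active site, at 52.7 and 54.1 FPKM (1.03, 0.942 to 1.12; relative 0.40). Corrected for length, Erp44 and Txndc5 stood at 0.59 and 0.43 and Erp29 at 0. The interval of the uncorrected ratio included 1 for these 3 genes, where the median gene had 0.778. Dnajc10, in contrast, was lower. It encodes ERdj5, a reductase with a J domain that opens disulfides of chains bound for degradation, and it stood at 49.5 and 30.3 FPKM (0.612, 0.578 to 0.648; relative -0.34, length-corrected -0.24).

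The ERAD factors act in sequence, from recognition of a failed chain through its passage across the membrane to ubiquitin. On the recognition side, the EDEM genes encode proteins that trim mannose from glycoproteins and so label them. Edem1 stood at 8.70 and 9.87 FPKM (ratio 1.13, 1.06 to 1.22; relative 0.54) and Edem2 at 68.6 and 58.4 FPKM (0.852, 0.808 to 0.898; relative 0.13). Edem3 was lower, with 2033 and 922 reads or 17.5 and 9.13 FPKM (0.523, 0.483 to 0.566; relative -0.54). The order of Edem3 and Edem1 differed: Edem3 per Edem1 was 2.01 in the control and 0.926 in the knockout, a ratio of ratios of 0.461 (0.415 to 0.512). Both genes are long, at 6685 and 10771 bases, and corrected for length they still lay apart, at -0.32 and 0.80. Edem2 stayed the most abundant of the family.

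Os9 and Erlec1 encode the lectins that read the trimmed sugar and bring the chain to the ligase. Os9 stood at 101 and 81.9 FPKM (ratio 0.813, 0.784 to 0.843; relative 0.07). Erlec1 stood at 9.87 and 8.64 FPKM (0.875, 0.826 to 0.927; relative 0.18). The ratio of ratios of this pair was 0.929 (0.868 to 0.994). The level of Erlec1 is uncertain, because its listed length of 15982 bases is well above the 3260 exonic bases of the GENCODE annotation for the same build. Both lengths also disagreed for other genes, among them Erp29 (1243 listed, 9060 in GENCODE), Manf (868 and 3524) and Edem1 (10771 and 6453). Levels and length-corrected differences of such genes carry the same doubt. The listed span of Erlec1 also overlaps Psme4 on the opposite strand (1543 and 654 reads). Whether strand was used in counting is not given in the sources used here.

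At the membrane, Sel1l and Syvn1 encode the scaffold and the ubiquitin ligase (HRD1) of the main ERAD complex. Sel1l stood at 25.1 and 23.6 FPKM (ratio 0.941, 0.890 to 0.996; relative 0.28). Syvn1 stood at 20.7 and 13.2 FPKM (0.634, 0.579 to 0.695; relative -0.27), so Syvn1 per Sel1l was 0.827 and 0.558, a ratio of ratios of 0.674 (0.605 to 0.7504). Syvn1 overlaps Mrpl49 on the opposite strand, which leaves its count less certain, as Mis12 does for Derl2. Herpud1, encoding a stress-induced scaffold of the ligase complex, was the most abundant ERAD gene at 253 and 227 FPKM (0.8996, 0.871 to 0.929; relative 0.21, length-corrected -0.01). Selk, encoding selenoprotein K of the derlin complexes, was nearly equal at 182 FPKM in each library (1.0003, 0.951 to 1.05; relative 0.36, length-corrected -0.13).

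The derlins, multi-pass membrane proteins through which chains are drawn out, differed the most within a family. Derl1 stood at 63.7 and 40.3 FPKM (ratio 0.633, 0.598 to 0.670; relative -0.29) and Derl2 at 5.30 and 4.24 FPKM (0.801, 0.684 to 0.938; relative 0.07). Derl3, a derlin typical of professional secretory cells, had 163 control reads and 312 knockout reads, equal to 6.96 and 15.4 FPKM. Its ratio was 2.21 (1.82 to 2.68) and its relative difference 1.45, or 1.09 corrected for length, with 98.6% of all measured genes lower. Derl3 per Derl1 was 0.109 and 0.381, a ratio of ratios of 3.49 (2.85 to 4.28). The locus of Derl3 is chr10:75893398-75895941, plus strand, and even in the knockout its level was below that of Derl1.

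Markers of acinar cells, which secrete digestive enzymes, and of B and plasma cells were higher in the library with more Derl3 and Fkbp11. Of 28 measured acinar markers, 27 were at least 2-fold higher relative to the median gene. Their summed level was 18007 and 154071 FPKM and none was at 0. The most abundant were Ctrb1 (3553 and 28292 FPKM), Cela2a (2085 and 18672 FPKM) and Prss2 (1603 and 12788 FPKM), all genes of digestive proteases. Of 6 measured B and plasma cell markers, 5 passed 2-fold in the same direction, and their list summed to 32.3 and 79.9 FPKM. It was led by Cd79a (20.5 and 50.9 FPKM), Jchain (5.27 and 13.2 FPKM) and Cd79b (1.63 and 5.60 FPKM), while the plasma cell receptor gene Tnfrsf17 was at 0 in both libraries. The plasma cell genes Mzb1, Prdm1 and Irf4 were below the minimum level and not measured. The part of these cells in the values of Derl3, Fkbp11, Ppib and Calr was not tested.

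Markers of the remaining cell types differed less than the acinar list. Of 10 measured markers of other endocrine cells, 5 were at least 2-fold higher and 0 lower. The most abundant were Gcg at 18915 and 26029 FPKM (relative 0.82), Ppy at 4676 and 11857 FPKM (1.71) and Pyy at 4081 and 9270 FPKM (1.55). Of 8 measured macrophage markers 2 were at least 2-fold higher. The most abundant were not among these: C1qa at 61.1 and 72.0 FPKM (relative 0.60), Lyz2 at 30.7 and 35.7 FPKM (0.58) and C1qb at 15.03 and 19.6 FPKM (0.74). Of 10 measured duct, stromal and endothelial markers 2 were at least 2-fold higher. The most abundant were not among these. Krt7 stood at 307 and 206 FPKM (relative -0.22) and Kdr at 16.3 and 8.74 FPKM (-0.50). Pecam1 stood at 12.6 and 9.74 FPKM (0.004, length-corrected -0.008). None of the 12 housekeeping genes was past 2-fold, and their median relative difference was 0.22, near the 0.18 of the ER set.

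**Figure D3:**
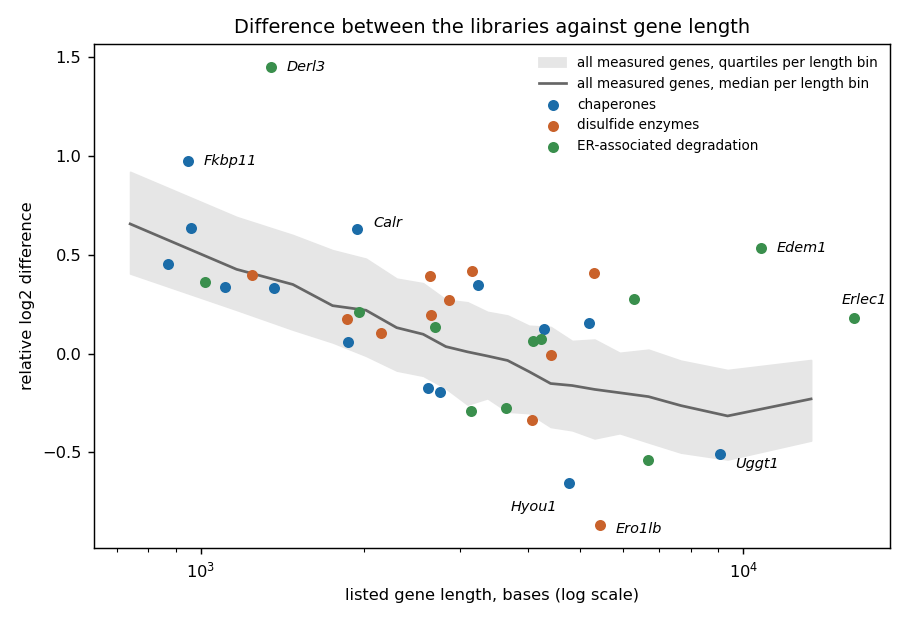
Relative log2 difference of the 37 measured genes (points, by role) against listed gene length in bases (log axis), with the median (line) and quartiles (band) of all measured genes in 20 length bins. The points tend to be lower at greater length, but not evenly. Fkbp11 at 946 bases stood at 0.97 and Uggt1 at 9047 bases at -0.51. The still longer Edem1 (10771 bases) and Erlec1 (15982 bases) stood at 0.54 and 0.18. Genes outside the band include Derl3, Edem1 and Erp44 above it and Ero1lb, Hyou1 and Edem3 below it.

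Within the set, longer genes tended to have lower differences, as they did among all genes. Spearman's rho of length and relative difference was -0.51 over the 37 genes and -0.55 over the 10666 measured genes. These are descriptions across genes of the same pair of libraries, and genes are not independent replicates. All of the 12 shortest genes, of 868 to 1955 bases, lay above the median gene, with a median of 0.38. Of the 13 between, of 2146 to 4090 bases, 8 lay above it, with a median of 0.104. Of the 12 longest, of 4229 to 15982 bases, 7 lay above it, with a median of 0.098. The middle and the longest genes of the set thus had nearly the same median. Level had little to do with the difference (rho -0.07).

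Some genes stayed on the same side of 0 under each scaling that was run. Under the 9 ways of computing the difference, 9 genes were below 0 each time: Hspa5, Hsp90b1, Hyou1, Uggt1, Dnajc10, Ero1lb, Syvn1, Derl1 and Edem3. Another 8 genes were above 0 each time: Calr, Fkbp11, Ppib, Pdia3, Erp44, Txndc5, Edem1 and Derl3. Both groups held genes of all 3 roles. The scalings all use the same pair of libraries. The share of all measured genes that kept their sign is not given here, so these counts cannot be set against a background. The other 20 genes stood on either side of 0, or at 0, depending on the scaling, Dnajb9, Canx, P4hb, Herpud1 and Sel1l among them.

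**Figure D4:**
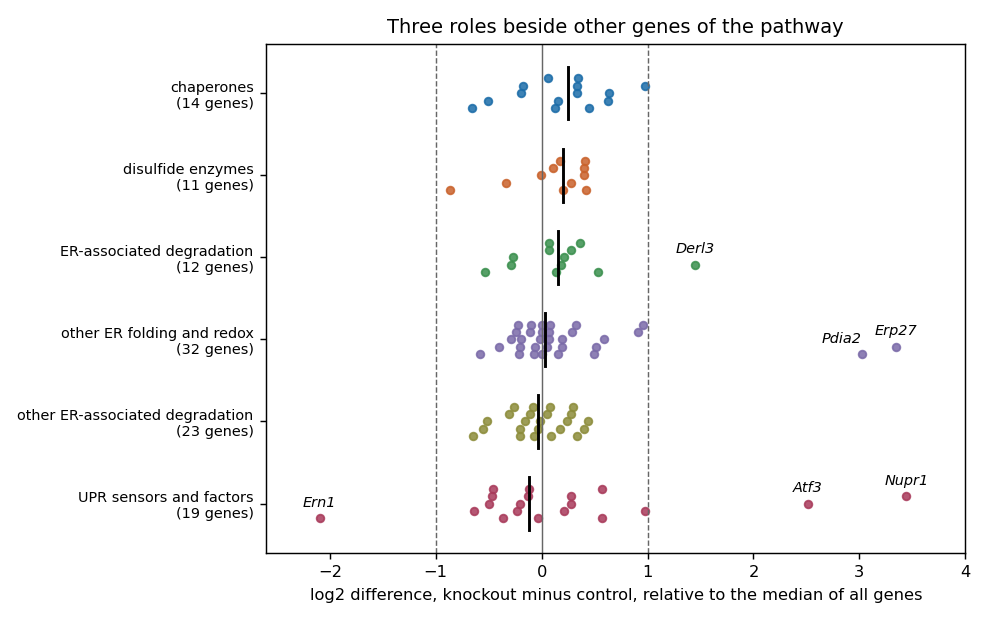
Relative log2 difference of the 37 measured genes by role and of the other measured genes of the pathway, 1 point per gene, with the median of each group (black bar) and 2-fold (dashed lines). Points are spread vertically for legibility. The medians lie between -0.12 and 0.25, and Derl3, Pdia2, Erp27, Atf3, Nupr1 and Ern1 are past 2-fold.

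Other genes of the pathway gave the setting. Of 32 measured genes of ER folding and redox outside the set, 2 were at least 2-fold higher and 0 lower, with a median of 0.03. The higher ones were Erp27 (4.54 and 39.3 FPKM, ratio 8.65, 7.27 to 10.3) and Pdia2 (32.4 and 208 FPKM, 6.41, 5.99 to 6.86), disulfide isomerase relatives of the exocrine pancreas that also stand in the acinar list. Among the 30 genes outside the acinar list, 0 were past 2-fold, and the lowest was the thioredoxin-related Tmx4 at -0.59. Of 23 measured other ERAD genes, 0 were past 2-fold, with a median of -0.03 (length-corrected 0.02). They ran from Nploc4, a cofactor of the extracting ATPase VCP (21.9 and 10.6 FPKM, relative -0.65), to Aup1, a lipid droplet and ERAD factor gene (40.1 and 42.4 FPKM, relative 0.44).

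Of the 19 measured sensors and factors of the unfolded protein response, 2 were at least 2-fold higher and 1 lower, with a median of -0.12. Ern1, which encodes the sensor IRE1, was the lowest, with 27.96 and 4.68 FPKM (ratio 0.167, 0.147 to 0.190; relative -2.09). Nupr1, a stress-induced nuclear protein gene, stood at 96.2 and 818 FPKM (8.50, 7.97 to 9.08) and the stress factor gene Atf3 at 0.988 and 6.10 FPKM (6.17, 4.26 to 9.19). None of the 37 genes of the ER set reached a difference of this size.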

How the data were processed

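For each library the deposited table gives read counts by gene and, per the file headers, FPKM values computed by the authors. Recomputing FPKM from reads, listed length and library total matched 23652 of 23652 genes within a relative tolerance of 1e-06. A second deposited table, the authors' comparison, has a normalised signal (reads divided by 1 size factor per library, 1.23 and 0.816), the fold ratio, its log2 value and p-values. The submitters' processing notes name the tools Bowtie2 (2.4.2) and DESeq and the build mm10 (GRCm38). For the counting tool, strand setting and annotation release, a name or release is not given in the sources used here.

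All 38 genes, their roles and all lists were chosen with earlier results of these data known. A count model needs replicates, so none was fitted. Measured genes were those averaging 1 FPKM or more, the pseudocount was 0.5 FPKM, and 2-fold (1 on the log2 scale) served as a size rule. Intervals of ratios are exact conditional binomial (Clopper-Pearson, 95%), those of a ratio of ratios exact conditional odds ratios, and shares have exact binomial intervals. All cover counting error only: reads that lack molecular identifiers cannot be taken as independent molecules. The length trend was a running median over 501 genes ordered by listed length. Scripts used Python 3.11.15, pandas 2.3.3, numpy 2.4.6 and scipy 1.17.1, and were tested on simulated data. Promoter windows came from RefSeq (GRCm38.p6), matched by gene ID. In 32 of the 40 windows the first 15 bases after the start occurred in a GENCODE M21 transcript of the gene. Named were all 38 genes, Srsf2, up to 4 genes per direction of each other pathway list (past 2-fold, or else the extreme), and the 3 most abundant of each marker list. Rnf5, Atf6b, Tnfrsf17, Mzb1, Prdm1, Irf4, Psme4, Mrpl49 and Mis12 were named after their values were seen. The alternatives were other pseudocounts, scalings, filters, a 1.5-fold rule and removal of the length trend. Protein sequences were not used here.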

Additional observations from a re-analysis of the deposited data

How the results depend on the processing

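No paired analysis was possible because each group has 1 library, and no library could be left out. The medians of all 37 genes, the chaperones, the disulfide enzymes and the ERAD factors were -0.18, -0.12, -0.17 and -0.21 as deposited, 0.038, 0.11, 0.064 and 0.019 with the total taken without acinar markers, and 0.036, 0.10, 0.052 and 0.012 with no filter on low values. With the length trend removed, the medians of all genes and of the chaperones were 0.086 and -0.074. Genes at least 2-fold higher numbered 2 with a pseudocount of 0.1 FPKM (Fkbp11 was added). With a 1.5-fold rule in place of 2-fold, 4 genes were past it higher (Derl3, Fkbp11, Calr and Ppib), where 11.3% of all measured genes were, and 2 lower (Hyou1 and Ero1lb), where 8.10% were. Genes at least 2-fold lower numbered 2 as deposited (Hyou1 and Ero1lb), 1 with the total without acinar markers and 1 with no filter (Ero1lb). Under the other alternatives run, both counts were as reported and all 4 medians were above 0. The split of all genes past 2-fold depended on the scaling: 70.3% were higher relative to the median gene, 67.4% with the authors' normalised counts, 46.4% with the total without acinar markers and 19.9% as deposited. With no filter, 56.1% were. With 1 library per group, variation between mice is unknown, and for low genes such as Derl2 and Derl3 the read number limits the ratio too.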

Other observations

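The genes in this paragraph were picked after their values were seen, and differences are relative to the median of all measured genes. The 3 stress sensors of the ER membrane were all below the median gene: Ern1 at -2.09, Atf6 at -0.50 (20.5 and 11.1 FPKM in control and knockout) and Eif2ak3, which encodes PERK, at -0.20 (16.3 and 10.9 FPKM). Mbtps1, the Golgi protease gene whose product cuts ATF6, stood at -0.64 (35.6 and 17.6 FPKM), and the Wolfram syndrome gene Wfs1 at -0.46 (42.3 and 23.7 FPKM). Xbp1, whose RNA is spliced by IRE1, stood at 0.57 (172 and 198 FPKM), Atf4 at -0.04 (118 and 88.9 FPKM) and Ddit3, encoding CHOP, at 0.98 (278 and 379 reads). Gene counts do not tell spliced from unspliced Xbp1. With the length trend removed, Atf6, Eif2ak3 and Xbp1 stood at -0.21, -0.05 and 0.41. Prdx4, an ER peroxidase that feeds disulfides to protein disulfide isomerase beside ERO1, stood at 0.96 (604 and 802 reads), or 0.92 with the length trend removed, while Ero1lb stood at -0.87 and -0.68.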
